A study of Mus musculus with 20 samples.

Results

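The linear trend over starch dose asked, for each gene of the cecum, whether its transcript level rose or fell as more raw potato starch (RPS) was added to the diet. All 20 mice of the series entered the trend, 5 on each of 4 diets, and each mouse was placed on the dose axis at its labelled percentage of RPS. C57BL/6 mice were given the Total Western Diet (TWD), a rodent diet built on American survey intakes, for 6 weeks, and then the TWD with 0, 2, 5, or 10% RPS (w/w) for another 3 weeks. The 0% mice thus shared the TWD, the strain, and the total feeding time with the other mice and differed from them, by the labels, in the added starch. Counts were given for 19887 genes, of which 15348 had enough reads to be tested (edgeR's filterByExpr), and each gene had 1 slope. The slope is the fitted log2 change from 0 to 10% RPS, so a slope of 1 stands for a 2-fold rise over the range of doses.

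Raw potato starch is packed in granules that resist amylase, and much of it reaches the cecum, where bacteria ferment it to short-chain fatty acids. The cecal epithelium takes up these acids through monocarboxylate carriers and burns butyrate in its mitochondria. Mucus from goblet cells, reactive oxygen and nitric oxide from epithelial oxidases, and the interferon-driven defenses of epithelial and immune cells lie between the tissue and its bacteria. Growth factors of the EGF family and the genes induced by low oxygen are active in the same surface cells.

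Total counts were between 14967798 and 42687283 per mouse and did not follow the dose (Pearson r = -0.141, permutation p = 0.552; Spearman rho = -0.109, p = 0.655; n = 20). Of 5 such measures, the TMM scaling factor was nearest to a relation with the dose (r = 0.564, permutation p = 0.0101, adjusted p = 0.0505; rho = 0.504, p = 0.0253, adjusted p = 0.1265), and r was 0.438 without the 2 mice farthest from the median factor. The summed level of 10 markers of colonic epithelium was 27500 to 45900 CPM (counts relative to the library size, scaled by edgeR's TMM method) in every mouse, so the tissue carried the markers of its label. Their mean sum went from 41200 ± 3200 CPM (SD, n = 5) with 0% through 37600 and 34500 to 33900 ± 6060 with 10% RPS, with 7 of the 10 below 0 (median slope -0.15), 3 of these at an unadjusted p under 0.05 and 0 past the adjusted threshold in edgeR. Epithelial markers thus moved in the direction of the falling gene groups described below, and their part in those results was not tested. Markers of smooth muscle were higher in most mice fed RPS. Their summed level was 3120 to 7070 CPM with 0%, 4220 to 7260 with 2%, 5260 to 11600 with 5%, and 5080 to 8420 with 10% RPS. All 10 of these markers had slopes above 0 (median slope 0.58). An unadjusted p under 0.05 was reached by 7 of the 10, and the adjusted threshold by 0. Markers of B cells and lymphoid follicles were uneven among mice of 1 diet. Their summed level was 11 to 334 CPM with 0%, 9.15 to 521 with 2%, 17.6 to 228 with 5%, and 27.6 to 471 with 10% RPS, and the single mouse at 27.6 stood apart from the other 10% mice, which had 369 to 471. Fibroblast markers had mean sums of 559, 664, 831, and 743 CPM over the 4 diets (median slope 0.35). Endothelial markers had mean sums of 223, 227, 220, and 199 CPM (median slope -0.33), and 1 of 10, Flt1, fell by 0.42 ± 0.10. Macrophage markers ranged from 244 to 429 CPM with 0% and from 347 to 481 with 10% RPS. Of 10 neutrophil markers, 2 had enough counts to be tested. In whole cecum, fewer cells of a type and less RNA per cell cannot be told apart, and this holds for each result that follows.

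**Figure D1:**
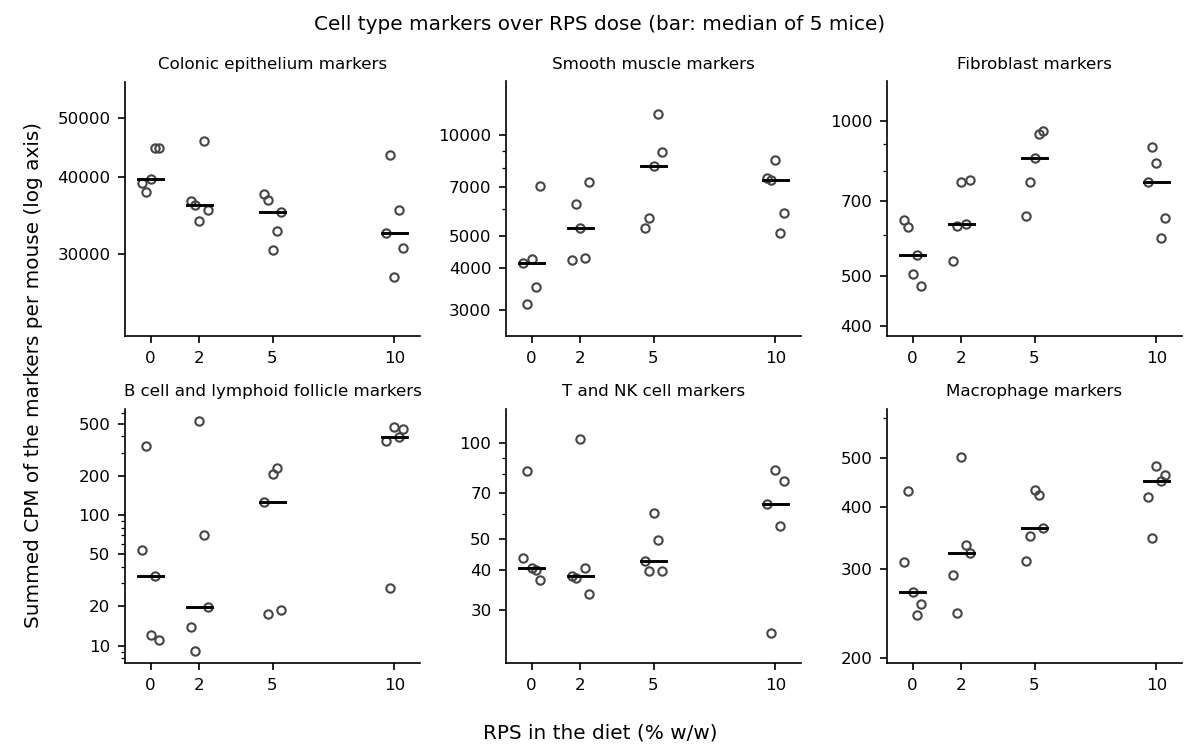
Summed CPM of 6 sets of cell type markers (log axis) in each of 20 mice against the percentage of RPS in the diet, with bars at the median of 5 mice. Smooth muscle markers lay at a median of 4130 CPM with 0% and 7360 with 10% RPS, while B cell markers spread over more than 10-fold among mice of the 0, 2, 5, and 10% diets.

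Of the 15348 genes, 58 rose with the dose (0.378%) and 112 fell (0.73%), so 170 (1.11%) had a trend (edgeR's quasi-likelihood test, Benjamini-Hochberg adjustment over the tested genes, threshold 0.05). At an unadjusted p under 0.05 the counts were 1438 genes above 0 (9.37%) and 1454 below 0 (9.47%). The mean level, not corrected for gene length, had a median of 61.0 CPM over the genes that fell and 12.9 CPM over those that rose. The absolute slope of the 170 genes had a median of 0.66 and was at least 1 for 41 genes. The smallest adjusted p, 0.00752, was shared by Slc2a1, the main glucose carrier of many cells, and Spry2, an inhibitor of growth factor signaling.

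The number of genes past the adjusted threshold depended on single mice. Without mouse 1 of the 10% diet 0 genes passed, against 2220 at an unadjusted p under 0.05, and 3 genes passed without mouse 3 of the 10% diet or without mouse 4 of the 0% diet. The number was 11, 14, and 10 without mice 1, 3, and 5 of the 0% diet. It was 67, 81, and 52 without mice 1, 2, and 4 of the 2% diet, 73, 92, and 112 without mice 1, 2, and 3 of the 5% diet, and 99 without mouse 5 of the 10% diet. It rose to 256 without mouse 2 of the 0% diet, 563 without mouse 4 of the 10% diet, and 674 without mouse 3 of the 2% diet. Mouse 2 of the 0% diet and mouse 3 of the 2% diet were the mice with the most B cell marker counts on their diets. The trend genes kept their sign and an unadjusted p under 0.05 in edgeR in every one of these fits in which they were tested (169 or 170 genes a fit). The median ratio of their slopes to those of all 20 mice was 0.94 to 1.11. Since these genes were chosen on the same mice and each fit left out 1 mouse, these results could hardly fail. Slc2a1 and Spry2 passed in 19 of the 20 fits, Stc1 and Gapdh in 18, 15 genes in at least 15, and 80 genes in at least 10.

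**Figure D2:**
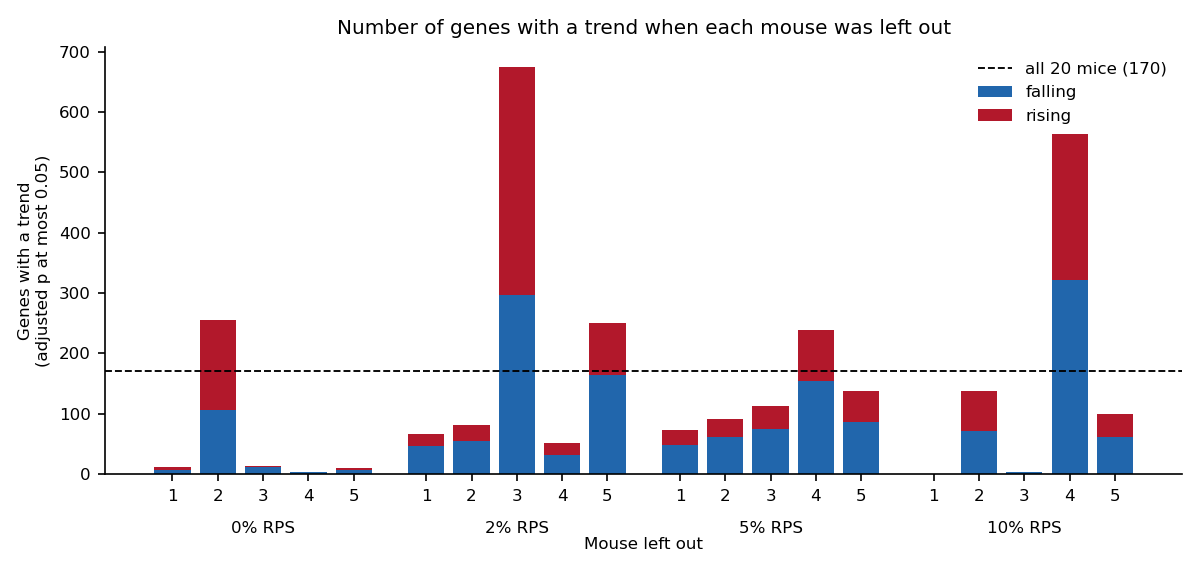
Number of genes with a rising or falling trend (stacked bars, edgeR adjusted p at most 0.05) when each mouse was left out of the fit, with the mice ordered by diet. The dashed line is the 170 genes of the fit with all 20 mice, and the bars run from 0 without mouse 1 of the 10% diet to 674 without mouse 3 of the 2% diet.

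Most of the trend genes moved in steps of 1 direction. Their diet means of log2 CPM were in strict order over the 4 doses for 49 of the 58 rising and 97 of the 112 falling genes, or 85.9% of both together, while 21.7% of all tested genes had means in strict order. The mice fed 0 and 10% RPS did not overlap for 134 of the 170, and for 4.88% of all tested genes. Since the slope test chose the 170 genes from the same mice, both shares are a description of them. The diet means at the low doses lay beyond a straight line for most of these genes, again as a description of genes chosen on the same mice, all set against the same 0% mice. The median gene had covered 42.7% of its 10% difference at 2% RPS and 73.9% at 5% RPS, where a straight line gives 20 and 50%. At 2% RPS 155 of the 170 genes, and at 5% RPS 146, were above the line. In 11 genes the 5% mean had gone beyond the 10% mean. A test of the departure from the line called 0 of 15348 genes (0.0%) in edgeR, with 511 (3.33%) at an unadjusted p under 0.05, of which 23 were trend genes. On a log2 scale of the dose 108 of the 170 genes had their smallest p, against 31 on the percent scale and 31 on the rank scale.

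**Figure D3:**
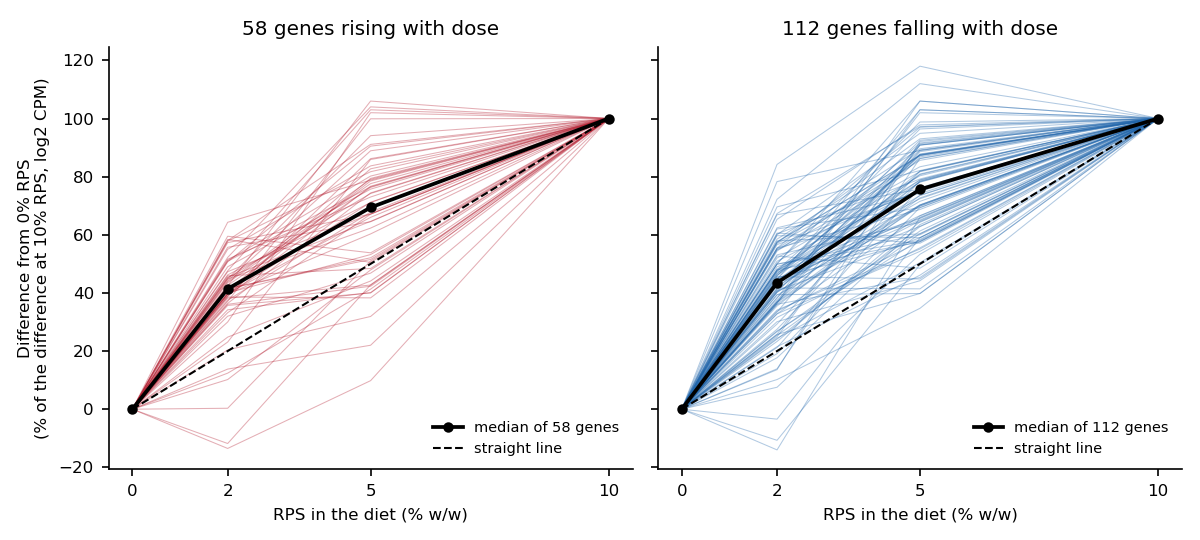
Difference of the diet mean from 0% RPS, as a percentage of the difference at 10% RPS (log2 CPM), for each of the 58 rising and 112 falling genes, with their medians in black and the straight line dashed. The medians at 2 and 5% RPS were 41.4 and 69.4% for the rising genes and 43.5 and 75.6% for the falling genes.

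The largest departures among the trend genes belonged to genes that had made most of their change at 2% RPS. Olr1, a scavenger receptor for oxidized lipoprotein, fell by 1.79 ± 0.44 (SE) on the log2 scale and had reached 84.2% of its 10% difference at 2% RPS. Apoa4, the apolipoprotein made during fat absorption, fell by 3.49 ± 0.73. Its level was 2.57, 1.95, 2.36, 2.15, and 1.95 CPM without RPS. The range with 2% RPS was 0.14 to 0.739. It was 0.0471 to 0.301 CPM with 5% and 0.0258 to 0.754 with 10% RPS, and the lowest mouse had 1 count. Some of the levels with RPS lay under the floor of 3 counts (0.20 CPM in the smallest library), while 3 mice fed 2% and 1 fed 10% were at 0.591 to 0.754 CPM. Every mouse fed RPS was under every mouse without it, and the 10% mean (0.246) was not lower than the 5% mean (0.132). Ier3, an early response gene, and Acsl3, which activates long-chain fatty acids, had covered 78.3 and 69.6% at 2% RPS and fell by 0.74 and 0.46.

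Among 29 hypoxia targets, 4 fell with the dose, 0 rose, and 25 had slopes below 0 (median -0.21, against 0.003 over all tested genes), 12 of them at an unadjusted p under 0.05. Roles of these genes include glucose uptake, glycolytic control, and calcium balance under low oxygen. Slc2a1 (ENSMUSG00000028645, chr4:118965908-118996365 of GRCm39, plus strand) was at 345, 303, 371, 329, and 418 CPM without RPS and at 263, 269, 270, 309, and 192 with 2%. With 5% RPS it was at 229, 235, 193, 224, and 170 CPM, and with 10% at 148, 181, 182, 230, and 174. All 0% mice were above all 5 and 10% mice, and a single 2% mouse reached the 0% range. The fitted fall was 1.86-fold (0.89 ± 0.13 on the log2 scale, adjusted p = 0.00752), and it was 0.69 with the smooth muscle marker level as a covariate.

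Stc1, which encodes the hormone stanniocalcin 1 (ENSMUSG00000014813, chr14:69266575-69279253, plus strand), was at 9.47, 9.08, 5.85, 11.7, and 8.87 CPM without RPS. It was at 6.91, 4.56, 4.52, 5.27, and 2.02 CPM with 2%, 3.56, 1.70, 1.52, 3.37, and 1.08 with 5%, and 1.19, 1.06, 2.43, 2.59, and 2.33 with 10% RPS. The mice fed 5 and 10% RPS shared 1 range, all under the lowest 0% mouse, and the fitted fall was 4.57-fold (2.19 ± 0.36, adjusted p = 0.0205). Ndrg1, a stress-induced gene of differentiated epithelium, averaged 564 ± 93.9 CPM (SD, n = 5) with 0%, 376 with 2%, 214 with 5%, and 231 ± 79.8 with 10% RPS (slope -1.25 ± 0.28). Pfkfb4, whose product sets the level of a glycolytic activator, fell by 0.75 ± 0.15. Its 0% mice were within 30 to 33.9 CPM and its 10% mice between 14.9 and 25.6. Hilpda, a lipid droplet protein induced by low oxygen that was not on the list, fell by 1.31 ± 0.30. Hif1a, the hypoxia-inducible factor itself, and Hk2, a hexokinase, had slopes of -0.62 and -0.77 and did not pass. Smooth muscle markers moved in the opposite direction to these genes, and their part was not tested. With their level as a covariate the median slope of the list was -0.18.

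The letters bound by hypoxia-inducible factors, ACGTG or GCGTG on either strand, were counted in the RefSeq promoter windows of GRCm38.p6, which run from 250 bases before to 50 bases after a gene's start. A gene with several windows counted once if any window held them. They were in 57 of 86 falling genes with a window (66.3%), in 23 of 42 rising genes (54.8%), and in 64.3% of 11650 tested genes, so the share of the falling genes was close to that of all tested genes. The stretch of Slc2a1 is shown because this gene shared the smallest adjusted p. It is chr4:119108595-119108744 of GRCm38.p6 on the plus strand, ends at the base before the start, and has the letters or their reverse in capitals, beginning 61 and 36 bases before the start.
Slc2a1: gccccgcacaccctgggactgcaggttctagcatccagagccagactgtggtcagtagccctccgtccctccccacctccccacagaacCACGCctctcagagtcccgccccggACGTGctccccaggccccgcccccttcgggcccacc

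Glycolysis and mitochondrial energy genes had small slopes below 0. Of 21 glycolysis enzymes 17 were below 0 (median -0.26, and -0.16 with the B cell covariate), 11 at an unadjusted p under 0.05, and 1 passed. The gene that passed, Gapdh, was listed at a mean of 13.9 CPM, a low level for a gene that every cell uses and that has many processed copies in the genome, so its value (slope -0.85 ± 0.15) is uncertain. Of 28 genes of fatty acid oxidation and ketogenesis 26 were below 0 (median -0.21), 2 fell, and 15 had an unadjusted p under 0.05. The median was -0.12 with the smooth muscle covariate and -0.07 among mice fed 2, 5, or 10% RPS. Pdk4, the kinase that shuts pyruvate out of the mitochondrion when fat is burned, was at 142, 119, 182, 112, and 97.5 CPM with 0% RPS and 77.1, 126, 49.9, 97.3, and 38.6 with 2%. It was at 73.7, 66.4, 56.3, 25.3, and 29.2 CPM with 5%, and 39.4, 49.5, 43.3, 66.2, and 31.2 with 10% RPS. The 0 and 10% mice did not overlap. The fall of Pdk4 was 2.69-fold (1.43 ± 0.33, adjusted p = 0.0453) and nearly complete at 5% RPS, at 97.0% of the 10% difference. Hadha, a subunit of the trifunctional enzyme of fatty acid oxidation, fell by 0.30 ± 0.07, from 549 ± 32.7 to 431 ± 31.0 CPM.

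Genes of the respiratory chain mostly had slopes below 0, with 2 calls. Of 36 complex I subunits 35 had slopes below 0 (median -0.18), 15 at an unadjusted p under 0.05, and 0 passed (Ndufa10 was nearest, slope -0.25, adjusted p = 0.0683). Of 39 genes of complexes II to V, 38 were below 0 (median -0.20) and 2 fell. Sdha, of succinate dehydrogenase, was at 676 ± 30 CPM with 0%, 610 with 2%, 586 with 5%, and 560 ± 23.9 with 10% RPS (slope -0.25 ± 0.06). Uqcrb, of complex III, fell by 0.33 ± 0.08. With the smooth muscle covariate the median slopes of the lists for complex I and complexes II to V were -0.03 and -0.12, and among the 15 mice fed 2, 5, or 10% RPS they were -0.03 and -0.03, nearer to 0 than with all 20 mice.

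Genes of fat handling held Apoa4, the called gene with the largest fall. Of 16 tested members of the list of apolipoproteins and fat absorption 14 were below 0 (median -0.30), and Apoa4, Creb3l3, and Plin2 fell. Creb3l3 (ENSMUSG00000035041, chr10:80920141-80934708, minus strand) encodes a membrane-bound transcription factor of intestine and liver that drives apolipoprotein genes. It was at 128, 145, 216, 138, and 189 CPM with 0%, and at 87.5, 135, 87.5, 154, and 42.4 with 2% RPS. With 5% RPS it was at 89.7, 65.4, 41.3, 42.3, and 30.7 CPM, and with 10% at 28.5, 32.9, 29.7, 95.4, and 52.3. The 0 and 10% mice did not overlap, and the fall was 3.34-fold (1.74 ± 0.37, adjusted p = 0.0366). Plin2, which coats lipid droplets, fell by 0.55 ± 0.13, and Dgat2, which makes triglyceride, by 0.89 ± 0.20, from 228 ± 34.2 to 121 ± 32.0 CPM. Rbp2, the retinol-binding protein of absorbing enterocytes, was the retinoid gene that fell (1.16 ± 0.24, 1 of 18 tested), and Rbp7, of the same protein family, fell by 1.4 ± 0.34. Apoa1, a neighbor of Apoa4 in the genome, and Mfsd2a, a lipid carrier, had slopes of -1.44 and -2.24 at unadjusted p of 0.00981 and 0.0035 and did not pass. The 24 cholesterol genes had a median slope of 0.003 (0.16 with the B cell and 0.15 with the smooth muscle covariate) and 0 calls in edgeR, with 1 at an unadjusted p under 0.05.

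Of 14 EGF family genes tested, 2 fell and 7 were at an unadjusted p under 0.05, all below 0 (median of the list -0.54, and -0.19 with the smooth muscle covariate). Areg, the EGF receptor ligand amphiregulin (ENSMUSG00000029378, chr5:91287451-91296291, plus strand), was at 159, 83.9, 112, 197, and 129 CPM with 0% and 103, 100, 52.1, 67.2, and 114 with 2% RPS. It was at 110, 134, 57.7, 122, and 38.8 CPM with 5% and at 43.1, 25.6, 41.5, 43.3, and 67.1 with 10% RPS. The 10% mice lay under all 0% mice, while the 5% mice spread over both ranges, and the fall was 2.77-fold (1.47 ± 0.33, adjusted p = 0.041). Errfi1, which blocks the EGF receptor from inside the cell, averaged 173 ± 28.4 CPM with 0%, 186 with 2%, 139 with 5%, and 106 ± 18.3 with 10% RPS (slope -0.81 ± 0.19), so its fall lay above 2% RPS. The ligands Btc, Hbegf, Tgfa, and Ereg had slopes of -0.91, -0.76, -0.32, and -1.17 and did not pass, and the EGF family receptors Egfr, Erbb2, and Erbb3 had slopes of -0.14, 0.07, and 0.16. Outside that list, Epha2, an ephrin receptor, fell by 1.25 ± 0.24, and Dusp5, a phosphatase that ends ERK signaling, by 1.28 ± 0.27. Spry2 and Spry1, which also restrain this pathway and were chosen after their values were seen, fell by 0.75 ± 0.11 and 0.54 ± 0.13. Spry2 averaged 38.6 ± 2.12, 30.5, 26.9, and 22.2 ± 3.11 CPM over the 4 diets.

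Of 24 immediate early genes 18 were below 0 (median -0.40) and 3 fell, namely Maff, a small partner of AP-1 factors, Btg2, an antiproliferative gene, and Ier3. Maff was at 57.2, 30.9, 39.3, 36.0, and 46.1 CPM with 0% RPS and at 16.6, 19.5, 19.5, 27.4, and 26.3 with 10% (slope -0.90 ± 0.18, adjusted p = 0.0275), and all 10% mice were under all 0% mice. The means of Btg2 were 211, 156, 128, and 120 CPM over the 4 doses (slope -0.76 ± 0.17). Fos and Egr1, the first genes of the response, had slopes of -0.61 and -1.20 and did not pass. On the list of glucocorticoid response genes (12 of 15 below 0, median -0.19, and -0.45 with the B cell and -0.44 with the smooth muscle covariate), Errfi1 and Cdkn1a fell. Cdkn1a, the cyclin kinase inhibitor p21, fell by 0.63 ± 0.12, from 563 ± 76.9 CPM with 0% through 456 and 417 to 351 ± 69.9 with 10% RPS. Plk3, Sfn, and Gadd45a, stress and checkpoint genes chosen after their values were seen, fell by 0.82, 0.95, and 0.79. None of 37 cell cycle genes passed in edgeR (3 at an unadjusted p under 0.05), and their median slope was 0.08 (0.16 with the B cell and 0.26 with the smooth muscle covariate).

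Of the 86 falling genes with a promoter window, 7 (8.14%) held the cAMP response letters TGACGTCA, which read the same on both strands, against 3.25% of tested genes and 2 of 42 rising genes (4.76%). These 7 are printed because 5 of them, Areg, Btg2, Epha2, Errfi1, and Maff, are described above; Flt1 encodes a VEGF receptor and Tubb2a a tubulin. Each line gives the match in capitals with the bases on either side, on the strand of the gene in GRCm38.p6. The regions are chr5:91139513-91139570 (Areg, plus), chr1:134079289-134079346 (Btg2, minus), chr4:141301163-141301220 (Epha2, plus), chr4:150854994-150855051 (Errfi1, plus), chr5:147726060-147726117 (Flt1, minus), chr15:79347466-79347523 (Maff, plus), and chr13:34078035-34078092 (Tubb2a, minus). The match begins 61, 166, 33, 51, 81, 29, and 59 bases before the start, in that order.
Areg: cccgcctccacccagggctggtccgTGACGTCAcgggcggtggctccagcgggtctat
Btg2: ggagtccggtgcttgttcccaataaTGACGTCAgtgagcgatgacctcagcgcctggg
Epha2: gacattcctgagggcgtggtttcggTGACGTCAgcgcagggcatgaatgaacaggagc
Errfi1: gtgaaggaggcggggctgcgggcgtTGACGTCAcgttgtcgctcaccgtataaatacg
Flt1: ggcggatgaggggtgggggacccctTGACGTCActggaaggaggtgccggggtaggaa
Maff: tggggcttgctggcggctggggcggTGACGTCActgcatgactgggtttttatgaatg
Tubb2a: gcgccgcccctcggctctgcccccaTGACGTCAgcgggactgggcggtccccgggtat
A match is a description of the letters, and whether a factor binds there was not tested. The AP-1 letters TGAGTCA or TGACTCA were in 8.14% of falling, 9.52% of rising, and 4.88% of tested genes, and the E-box CACGTG, which overlaps the hypoxia letters, was in 12.8, 9.52, and 11%. The unfolded protein response letters CCACG were in 51.2, 50, and 49.9%, and the GAS letters TTCNNNGAA in 6.98, 9.52, and 8.35%. The NF-kappaB letters (GGGA followed by CTTTCC or ATTTCC) and a direct repeat (AGGTCA, any base, and AGGTCA again) were in 0 of the 128 trend genes with a window and in 0.361 and 0.0601% of tested genes.

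Goblet cell genes mostly had slopes below 0, and mucin genes were divided. Of 20 goblet cell genes 18 were below 0 (median -0.40), and Zg16, Spink4, Bcas1, and Capn9 fell. At an unadjusted p under 0.05 there were 9 below and 2 above 0 in edgeR. With the smooth muscle covariate the median was -0.22. Zg16, a secreted lectin that binds bacteria (ENSMUSG00000049350, chr7:126649302-126686500, minus strand), was at 2300, 2190, 2010, 2280, and 3130 CPM with 0% and 1890, 1730, 1670, 2390, and 1110 with 2% RPS. It was at 1550, 1430, 1430, 1520, and 1360 CPM with 5%, and at 1140, 1210, 1130, 1750, and 1400 with 10% RPS. Every mouse fed 5 or 10% RPS was under every 0% mouse (slope -0.78 ± 0.16, adjusted p = 0.0333). Spink4, a secreted protease inhibitor, fell by 0.55 ± 0.13, and the proteins Bcas1 and Capn9 by 0.66 ± 0.16 and 0.54 ± 0.13. With the same covariate the slopes of Spink4, Bcas1, and Capn9 were -0.30, -0.42, and -0.24, and that of Zg16 was -0.55. Spdef, the transcription factor of goblet cell maturation, and Tff3, the trefoil factor, had slopes of -0.53 and -0.51 and did not pass. Among 29 mucins and enzymes of mucin glycosylation, 14 were above and 15 below 0 (median -0.01), 0 passed in edgeR, and 6 above and 9 below 0 had an unadjusted p under 0.05. The secreted mucin Muc2 had a slope of -0.65 and the membrane mucins Muc4, Muc13, and Muc3a had slopes of 0.91, 0.40, and 0.53.

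Other surface genes fell singly. Cldn4, a claudin of the tight junction, averaged 271 ± 43.6, 208, 118, and 120 ± 42.9 CPM over the diets (slope -1.18 ± 0.28, 1 of 19 tight junction genes). Sema7a, a membrane semaphorin, was at 101, 73.7, 87.0, 79.1, and 76.6 CPM with 0% and at 11.4, 8.73, 19.7, 45.8, and 25.7 with 10% RPS (slope -1.86 ± 0.43, 1 of 23). Ly6g6c and Ly6c1 fell by 1.15 ± 0.26 and 0.71 ± 0.18. Psca, of the same family, had a slope of -3.03 and did not pass. The metallothionein Mt1 fell by 0.85 ± 0.21. Slc9a3, the sodium-hydrogen exchanger of the brush border, had a slope of -1.04 at an adjusted p of 0.0594, and none of 26 ion and water transport genes passed in edgeR (9 at an unadjusted p under 0.05). Cyp2c55 (ENSMUSG00000025002, chr19:38995462-39031144, plus strand), a cytochrome P450 of the large intestine, was at 5420, 4830, 5630, 5320, and 5330 CPM with 0% and 4250, 3940, 3960, 5130, and 4030 with 2% RPS. It was at 4560, 3700, 3920, 3950, and 4200 CPM with 5% and at 2800, 3540, 3210, 4190, and 3050 with 10% RPS. The 0 and 10% mice did not overlap, the 2 and 5% means (4260 and 4060 CPM) lay between theirs, and the fall was 0.60 ± 0.10 on the log2 scale (adjusted p = 0.0208).

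**Figure D4:**
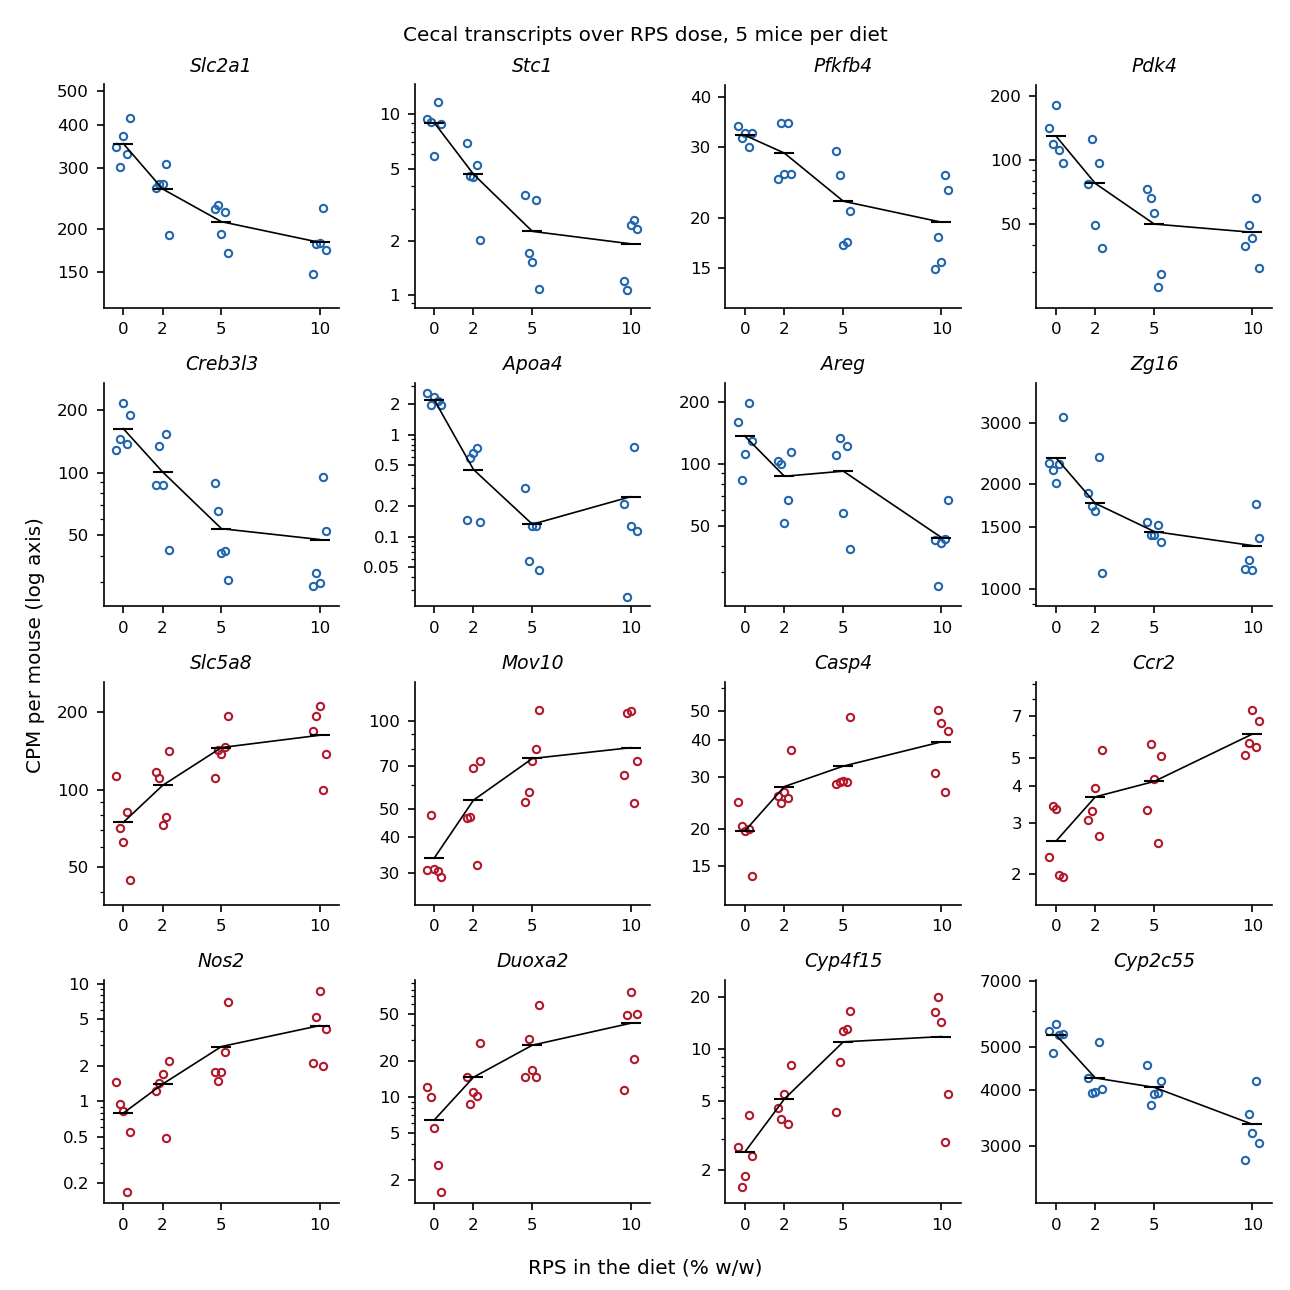
CPM of 16 named genes (log axes) in each of 20 mice against the percentage of RPS, with blue circles for genes that fell, red circles for genes that rose, and black dashes and lines for the diet means. Slc2a1 and Cyp2c55 stepped down at each dose, while Apoa4, Pdk4, and Cyp4f15 were near their 10% mean at 5% RPS.

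Genes of epithelial oxidases and nitric oxide had the most calls among the lists with rising genes. Of 13 tested members 11 were above 0 (median 0.53), and Duoxa2, Nos2, and Noxa1 rose. Nos2, the inducible nitric oxide synthase (ENSMUSG00000020826, chr11:78811613-78851080, plus strand), was at 1.46, 0.956, 0.825, 0.168, and 0.545 CPM with 0% and 1.22, 1.43, 1.71, 0.482, and 2.19 with 2% RPS. It was at 1.78, 1.5, 1.78, 2.64, and 6.97 CPM with 5%, and at 2.13, 5.19, 8.66, 1.98, and 4.13 with 10% RPS. Every mouse fed 5 or 10% RPS was above every 0% mouse, and the rise was 5.23-fold (2.39 ± 0.50, adjusted p = 0.0333). Duoxa2, the factor that carries the dual oxidase Duox2 to the membrane (chr2:122129380-122133366, plus strand), was at 12, 10, 5.48, 2.65, and 1.58 CPM with 0% and at 11.3, 49.2, 77.0, 21.0, and 49.4 with 10% RPS. Its 0 and 10% mice met at 1 mouse each, and the slope was 2.49 ± 0.59 (adjusted p = 0.0469). Duoxa2 overlaps Duoxa1 on the other strand. Duox2 itself had a slope of 1.81 and Lpo, lactoperoxidase, of 2.07, and neither passed. Noxa1, the activator of the oxidase Nox1, rose by 0.53 ± 0.12, with 37.5 to 45.6 CPM in the 0% mice and 49.8 to 77.7 in the 10% mice. Nox1 had a slope of 0.29. With the smooth muscle covariate the slopes of the genes that rose were smaller, at 1.4 for Nos2, 1.83 for Duoxa2, and 0.28 for Noxa1, while the median of the list was 1.0. With the B cell covariate that median was 0.50.

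Uptake and metabolism also rose at single genes. Slc5a8 (ENSMUSG00000020062, chr10:88721766-88765377, plus strand), the sodium-coupled carrier of butyrate and other monocarboxylates, was at 113, 71.2, 62.7, 82.1, and 44.6 CPM with 0% and 117, 111, 73.0, 78.4, and 142 with 2% RPS. It was at 111, 143, 138, 147, and 193 CPM with 5%, and at 170, 194, 211, 100, and 138 with 10% RPS. A 0% mouse at 113 and a 10% mouse at 100 overlapped, and the rise was 2.10-fold (1.07 ± 0.24, adjusted p = 0.0405). It was the 1 of 12 genes of short-chain fatty acid transport and sensing that passed, and 6 were above and 6 below 0 (median 0.07, which was -0.12 with the B cell and 0.21 with the smooth muscle covariate). Slc16a1, the proton-coupled carrier of the same acids, and the receptors Ffar2 and Ffar3 had slopes of 0.20, -0.05, and -0.07. Slc26a3, the chloride-bicarbonate exchanger, had a slope of 0.53 and did not pass. Cyp4f15, a cytochrome P450 that hydroxylates fatty acids and eicosanoids, rose by 2.09 ± 0.50, from 2.54 ± 1.01 CPM with 0% through 5.13 and 11 to 11.8 ± 7.33 with 10% RPS. Mouse 4 of the 10% diet was at 2.87 CPM, inside the 0% range. Cyp2d9 and Cyp2d12, of a family of near-identical genes whose shared reads may have been divided in counting, rose by 1.43 ± 0.31 and 1.25 ± 0.26. Plb1, a brush border phospholipase, rose by 1.55 ± 0.38. Slc13a2, a citrate carrier chosen after its values were seen, rose by 0.84 ± 0.18, from 170 ± 28.9 to 313 ± 76.7 CPM.

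Interferon-stimulated genes mostly had slopes above 0, with few calls. Of 37 tested genes of the type 1 response 35 were above 0 (median 0.41), 15 of them at an unadjusted p under 0.05, Mov10 rose, and Oasl1 fell. Mov10, an RNA helicase that restricts retroviruses and mobile elements (ENSMUSG00000002227, chr3:104702140-104725879, minus strand), was at 30.7, 47.5, 31.1, 30.5, and 29.2 CPM with 0% and 46.5, 46.9, 69.0, 31.9, and 72.5 with 2% RPS. It was at 52.5, 56.8, 73.0, 79.7, and 109 CPM with 5%, and at 64.9, 106, 108, 52.4, and 73.0 with 10% RPS. All mice fed 5 or 10% were above all 0% mice, with 90.5% of the difference reached at 5% RPS, and the rise was 2.22-fold (1.15 ± 0.27, adjusted p = 0.0459). Oasl1, which restrains translation of the interferon regulator Irf7, fell by 0.53 ± 0.11, from 44.8 ± 8.86 to 31.1 ± 3.13 CPM. Irf7, Parp14, Rigi, and Uba7 had slopes of 0.82, 0.71, 0.52, and 0.60 and did not pass. Trim5, a retroviral restriction factor that is 1 of several near copies in the mouse genome, was not on the list. It was at 2.90, 5.02, 2.81, 2.82, and 2.01 CPM with 0% and 5.58, 5.21, 8.94, 6.88, and 7.05 with 10% RPS (slope 1.15 ± 0.22, adjusted p = 0.0275), and its slope was 0.76 with the B cell covariate. With that covariate the median slope of the list was 0.38, and with the smooth muscle covariate it was 0.29.

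The interferon response letters (GAAA, any 2 bases, and GAAA again, on either strand) were in 5 of 42 rising genes with a promoter window (11.9%), in 3 of 86 falling genes (3.49%), and in 3.93% of tested genes. Mov10, the gene of the interferon list that rose, had 0 matches in its windows. The matches of the 5 rising genes are shown because they include Trim5 and the granzyme inhibitor Serpinb9. The other genes, Cytip, Fancg, and H2bc6, encode an adhesion regulator, a DNA repair protein, and a histone H2B. All are on the strand of the gene, where the match reads as its reverse. The regions in GRCm38.p6 are chr7:104288121-104288180 (Trim5, minus), chr13:33004470-33004529 (Serpinb9, plus), chr4:43010325-43010384 (Fancg, minus), chr13:23585954-23586013 (H2bc6, minus), and chr2:58160265-58160324 (Cytip, minus), and the match begins 49, 46, 58, 18, and 177 bases before the start.
Trim5: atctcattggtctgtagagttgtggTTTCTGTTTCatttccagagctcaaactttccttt
Serpinb9: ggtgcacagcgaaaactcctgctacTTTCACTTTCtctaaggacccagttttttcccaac
Fancg: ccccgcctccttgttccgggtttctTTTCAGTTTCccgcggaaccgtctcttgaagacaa
H2bc6: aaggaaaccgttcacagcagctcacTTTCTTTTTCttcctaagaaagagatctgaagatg
Cytip: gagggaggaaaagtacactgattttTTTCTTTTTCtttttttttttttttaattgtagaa
The match of Cytip lies in a run of T. Serpinb9 was at 7.72 ± 0.75 CPM with 0% and 10.9 ± 1.94 with 10% RPS (slope 0.49 ± 0.12).

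Other immune lists had few or 0 calls. All 20 genes of MHC class I and the immunoproteasome were above 0 (median 0.37), 10 at an unadjusted p under 0.05 and 0 past the adjusted threshold in edgeR, and the median was 0.14 with the B cell and 0.20 with the smooth muscle covariate. The MHC class II genes had a larger median (0.96, 9 of 13 at an unadjusted p under 0.05, 0 passed in edgeR), which was 0.13 with the B cell covariate. H2-Aa was at 81.8 ± 45.0, 87.1, 99.8, and 158 ± 55.7 CPM over the diets, and mouse 2 of the 10% diet, which had the fewest B cell markers there, was at 64.9. The 14 immunoglobulin constant and IgA secretion genes (median 1.31, 0 passed in edgeR, 4 at an unadjusted p under 0.05) had a median of 0.31 with that covariate, and the 21 genes of the TNF superfamily, with 9 above and 4 below 0 at an unadjusted p under 0.05, went from 0.66 to 0.09. Antimicrobial and acute-phase genes (10 above and 5 below 0, median 0.32, and 0.14 with the B cell covariate) and genes of interleukin-1 and interleukin-6 signals (8 above and 8 below 0, median 0.06, and -0.13 with that covariate) had 0 calls in edgeR, with 6 and 5 genes at an unadjusted p under 0.05. Casp4, the caspase that senses bacterial lipopolysaccharide in the cytosol (ENSMUSG00000033538, chr9:5308828-5336783, plus strand), was at 24.7, 20.5, 19.7, 20.1, and 13.9 CPM with 0% and 25.9, 24.5, 26.8, 25.5, and 37.0 with 2% RPS. It was at 28.4, 28.8, 29.2, 28.9, and 47.9 CPM with 5%, and at 31.1, 50.5, 45.8, 26.8, and 43.1 with 10% RPS. The 0% mice were under all 5 and 10% mice (slope 0.90 ± 0.19, adjusted p = 0.0333), and Casp4 was the 1 of 21 inflammasome, caspase, and gasdermin genes that passed.

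Ccr2, the receptor that draws monocytes into tissue (chr9:123901982-123913594, plus strand), was at 2.28, 3.42, 3.34, 1.98, and 1.95 CPM with 0% and at 5.12, 5.65, 7.36, 5.47, and 6.71 with 10% RPS (slope 1.12 ± 0.21, adjusted p = 0.0275). Its 2 and 5% means were 3.68 and 4.16 CPM. C4b, of complement, rose by 0.66 ± 0.16, 1 of 20 complement genes, of which 17 were above 0 (median 0.30). With the B cell covariate the slope of C4b was 0.36 (adjusted p = 0.236 in edgeR) and the median 0.09. Ticam1, the adaptor of Toll-like receptors 3 and 4, fell by 0.48 ± 0.11, while 14 of 18 Toll-like and NOD receptor genes were above 0 (median 0.21, and 0.07 with the B cell covariate). Rel, an NF-kappaB subunit, Cd274, the checkpoint ligand PD-L1, and Ly75, a dendritic cell receptor, were chosen after their values were seen and rose by 0.73, 0.82, and 0.85. Of the genes that rose, the immunoglobulin segments Ighv1-5 and Igkv3-5 had the largest slopes, 3.72 and 3.32. With the B cell covariate the slopes were 2.43 and 3.04 (adjusted p = 0.225 and 0.0893 in edgeR), and the slope of Ighv1-5 was 2.74 to 5.03 with each mouse left out. Their means were under 1 CPM with 0, 2, and 5% RPS and were not in order over the diets. Among 29 collagens and matrix genes Col12a1 rose by 0.82 ± 0.19, with a slope of 0.25 under the smooth muscle covariate, and the list's median went from 0.30 to -0.04.

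Several other lists had small median slopes and 0 calls. The median slope was -0.02 for 17 enteroendocrine genes, 0.17 for 17 tuft cell genes, 0.13 for 19 stem cell and Wnt genes, -0.07 for 19 clock genes, and -0.08 for 63 ribosomal proteins, and in each list 0 genes passed in edgeR (at an unadjusted p under 0.05, 1, 6, 1, 3, and 13). Of the 17 tuft cell genes 14 were above 0, among them all 6 at that unadjusted level. The sign of the median turned for tuft cell (-0.02) and clock genes (0.04) with the B cell covariate and for stem cell (-0.01) and ribosomal protein genes (0.06) with the smooth muscle covariate. Genes of the unfolded protein response (21 of 23 below 0, median -0.20) and heat shock proteins (18 of 21 below 0, median -0.18) had 0 calls in edgeR, with 5 and 2 genes at an unadjusted p under 0.05. The median of the heat shock proteins was -0.34 with the B cell and -0.32 with the smooth muscle covariate, and that of the enteroendocrine genes was -0.23 with the latter. A p that misses the threshold does not show that a gene was level, and on simulated counts of these mice the test recovered 75 of 100 genes with a 2-fold and 95 of 100 with a 4-fold change over the doses.

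**Figure D5:**
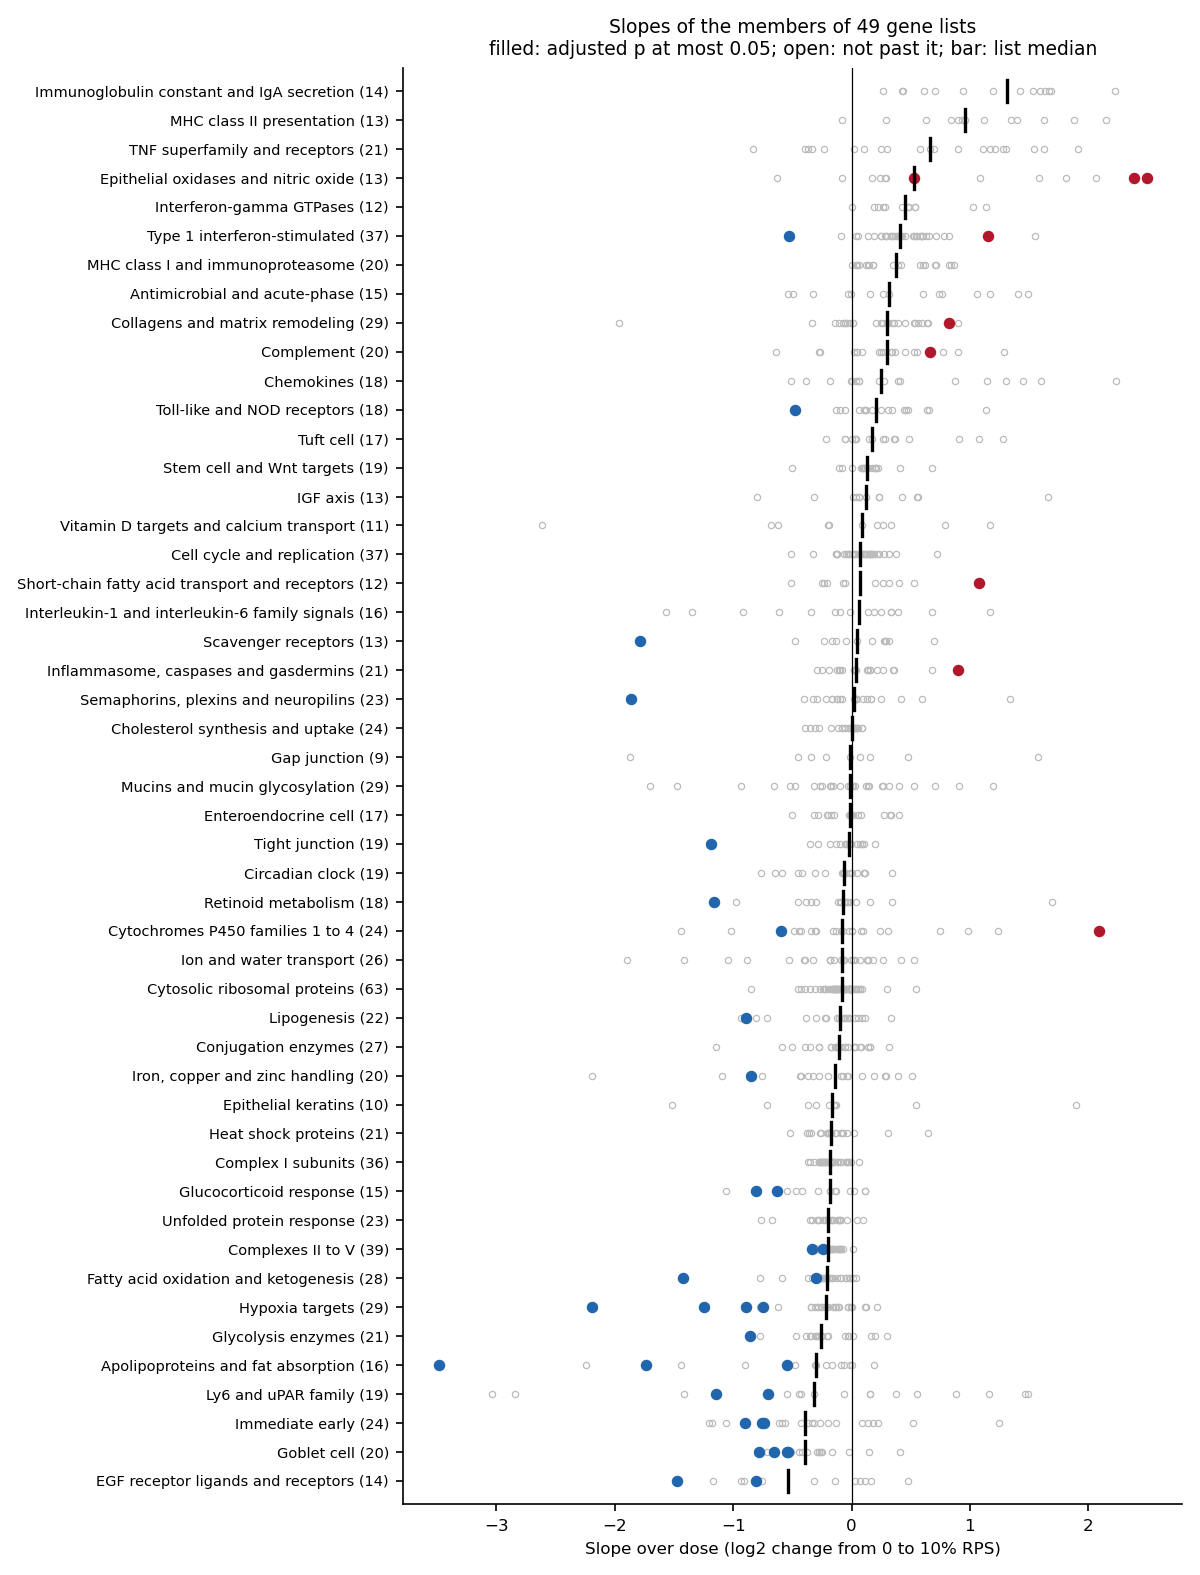
Slopes over dose (log2 change from 0 to 10% RPS) of the tested members of 49 gene lists, ordered by the list median (black bar), with filled circles for members past the adjusted threshold and open circles for the rest. EGF family, goblet cell, and immediate early genes have the lowest medians (-0.54, -0.40, and -0.40; -0.19, -0.22, and -0.49 with the smooth muscle covariate), and immunoglobulin and MHC class II genes the highest (1.31 and 0.96; 0.31 and 0.13 with the B cell covariate).

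The smooth muscle and B cell covariates were each the mean log2 CPM of the markers without TMM scaling, not their summed level. With the smooth muscle covariate 0 genes passed in edgeR, while all 170 slopes kept their sign and 159 had an unadjusted p under 0.05. These genes had been chosen for their slope on the same mice. The median ratio of their slopes to those without the covariate was 0.754. The slope moved by over 1.5-fold toward 0 for many of the genes described above, such as those that follow. It went from -1.79 to -0.55 for Olr1, from -1.43 to -0.73 for Pdk4, from -1.25 to -0.69 for Ndrg1, from -1.74 to -1.07 for Creb3l3, from -1.86 to -1.07 for Sema7a, and from -3.49 to -2.03 for Apoa4. It went from -1.28 to -0.66 for Dusp5, from -1.31 to -0.73 for Hilpda, from -1.16 to -0.70 for Rbp2, from -1.18 to -0.71 for Cldn4, from -0.89 to -0.52 for Dgat2, from -0.75 to -0.46 for Pfkfb4, from -0.55 to -0.30 for Plin2, and from -0.74 and -0.71 to -0.46 for Ier3 and Ly6c1. It went from 2.09 to 0.77 for Cyp4f15, from 1.15 to 0.57 for Mov10, from 1.07 to 0.62 for Slc5a8, from 0.85 to 0.46 for Ly75, and from 0.82 to 0.50 for Cd274. The slopes of Areg, Epha2, Cdkn1a, Plk3, Zg16, Cyp2c55, Casp4, and Ccr2 moved by less than that. With the B cell markers as a covariate 54 genes rose and 44 fell, of which 51 were among the 170. Among the 15 mice fed 2, 5, or 10% RPS 0 genes passed in edgeR, against 811 at an unadjusted p under 0.05, and of the 168 trend genes tested there all had the same sign and 141 an unadjusted p under 0.05. Among the 15 mice fed 0, 2, or 5% RPS 55 genes passed, 22 of them shared with the 170. A test of the slope against a 1.5-fold change over 10% RPS called 0 genes in edgeR's glmTreat, with 373 at an unadjusted p under 0.05.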

How the data were processed

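Cecal poly(A) RNA of 20 mice was sequenced from stranded libraries (Illumina TruSeq Stranded mRNA). Per the study's methods, the authors removed low-quality nucleotides and reads with several ambiguous ones, mapped the reads to GRCm39, and counted them per gene in CLC Genomics Workbench. The annotation release and the treatment of reads with several positions or of strand in counting are not given in the sources used here, so overlapping genes and near copies are uncertain. The deposited values were raw counts for 19887 genes. Of these, 19827 were matched by symbol to GENCODE M39 for identifiers and coordinates. Groups were taken from the labelled percentage of RPS, and each sample is labelled as a separate mouse.

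Genes were filtered with filterByExpr (minimum count 10, minimum total 15), scaled by TMM, and fitted with edgeR 4.0.16 (R 4.3.3) by a robust quasi-likelihood model on percent RPS divided by 10, two-sided, with Benjamini-Hochberg adjustment over 15348 genes at 0.05. Lack of fit compared this line with a model of 4 diet means. CPM values are TMM-scaled. SE is that of the slope, and SD is over 5 mice. Median depth was 498.8 counts per tested gene and mouse, 3 counts equal 0.20 CPM in the smallest library, and intervals cover the spread between mice.

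The rule named the 12 rising and 12 falling genes with the largest slopes among called genes with a mean of at least 1 CPM and diet means in strict order, the 4 called genes with the smallest lack-of-fit p, and, in each of 49 gene lists, up to 3 called members with the smallest p or, with none called, the member with the smallest p. Of the genes it named, 1 is not reported here. Another 14 lists held cell type markers, and 31 list symbols were not matched. Other members of a list were named for their role or after their values were seen. The trend, the members, and the lists were chosen with earlier results of these data known. Alternatives used DESeq2 1.42.0, sva 3.50.0, other filters, scalings, and dose scales, and each mouse left out. On simulated counts of these mice with 100 genes changed 2-fold and 100 changed 4-fold, 75 and 95 were recovered and 6 unchanged genes were called, and with no change 0 were called. Promoter windows and their coordinates came from RefSeq (GRCm38.p6) and were matched by symbol for 11650 of 15347 symbols.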

Additional observations from a re-analysis of the deposited data

Results flagged for a closer look

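In 21 of 324 groups of 5 mice, each holding a named gene on 1 diet, the highest or lowest mouse lay far from the other mice of its diet (a gap above 0.71 of the range, Dixon's 95% value on the log2 scale). Chance marks about 1 in 20 such groups, and no mouse was marked more than 3 times.

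With 0% RPS, Mov10 was at 47.5 CPM in mouse 2 and at 29.2 to 31.1 in the others, and Plin2 was at 285 CPM in mouse 3 against 181 to 205. Mouse 5 had 83.7 CPM of Ticam1 (others 59.4 to 64.5) and 17.4 of Ccl6, a chemokine (others 24.3 to 24.7).

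With 2% RPS, mouse 1 had 193 CPM of Ndufa10 (others 179 to 182), mouse 2 had 0.939 of Plb1 (others 2.06 to 2.70), and mouse 3 had 11.2 of Ier3 (others 14.6 to 15.9). Mouse 4 had 7.97 CPM of Plscr1l1, a scramblase homolog (others 3.36 to 4.26), 75.6 of the sterol isomerase Ebp (others 62.0 to 63.8), and 5130 of Cyp2c55 (others 3940 to 4250). Mouse 5 had 37.0 CPM of Casp4 (others 24.5 to 26.8) and 16.7 of Capn9 (others 27.6 to 29.4).

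With 5% RPS, C4b was at 41.4 CPM in mouse 3 against 26.2 to 29.9. Mouse 5 had 47.9 CPM of Casp4 (others 28.4 to 29.2), 10.6 of the resistin-like Retnla (others 7.36 to 7.72), and 4.29 of Ly6g6c (others 9.97 to 13.3).

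With 10% RPS, Ccl6 was at 27.3 CPM in mouse 1 against 30.8 to 31.7. Mouse 2 had 9.53 CPM of Cyp2d9 (others 2.93 to 3.63) and 64.9 of H2-Aa (others 154 to 210), and mouse 3 had 28.6 of H2-T22 (others 21.7 to 23.1). Mouse 4 had 3.25 CPM of Retnla (others 8.29 to 12).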

How the results depend on the processing

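No paired analysis was possible because each diet has its own mouse numbers in the labels. With 1 mouse left out at a time, 0 to 378 genes rose, 0 to 322 fell, and 0 departed from the line. The number of rising and falling genes was 37 and 66 with no filter on low counts, 203 and 336 on the rank of the dose, 283 and 441 on the log2 scale, and 293 and 413 with DESeq2's Wald test. It was 28 and 27 among mice fed 0, 2, or 5% RPS, and 0 and 0 among mice fed 2, 5, or 10% or in glmTreat. With 1 surrogate variable 35 genes rose and 83 fell. Covariates chosen after seeing the data gave 54 and 44 for B cell markers, 0 and 0 for smooth muscle markers, and 337 and 416 for the mitochondrial share of counts. The cause of these shifts was not tested. DESeq2 size factors (48 and 111), at least 10 counts in every mouse (56 and 112), a fit that was not robust (63 and 123), and immunoglobulin genes left out (61 and 102) stayed within 1.5 times the counts reported. Among 82 named genes, 0 slopes reversed. For called genes, 563 of their leave-one-out results passed and 577 did not, and for other settings 585 passed and 324 did not. The relation of the TMM factor to dose had r = 0.438 without the 2 farthest mice (permutation p = 0.0672) and 0.495 to 0.676 with each mouse left out. The ranges for the immunoglobulin share, the mitochondrial share, the share of the 10 most abundant genes, and the total count were 0.34 to 0.507, -0.205 to -0.035, -0.337 to -0.135, and -0.293 to -0.043. Genes under 1 CPM rest on few counts, and the floor of 3 counts was 0.20 CPM in the smallest library.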
